A study of Mus musculus with 4 samples.

Results

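Aldehyde and alcohol dehydrogenases are the liver enzymes that oxidise alcohols to aldehydes and aldehydes to acids, and 10 of their genes were followed here in mice that lack hemojuvelin. They were Aldh2, Aldh1a1, Aldh1a7, Aldh1b1, Aldh3a2, Aldh8a1, Aldh9a1, Adh1, Adh4 and Adh5. Each was read from the assembled loci that overlap its exons on GRCm38, 56 of the 154206 loci in the 4 libraries, and all 10 had a usable value in every library, out of 7928 genes tested. The set was chosen by the level of Aldh2 in knockout against wild type, so its values in this contrast are a description, and no p-value is given for any of the 10. The question put to the data was whether the higher level of Aldh2 is shared by its relatives.

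The RNA came from livers of male C57/BL6 mice. In 2 libraries (Hjv knockout replicates 1 and 2) the mice were homozygous for a disruption of the hemojuvelin gene HJV (Hjv in mouse nomenclature), and 2 libraries (wild type replicates 1 and 2) came from mice with the intact gene. For 50 days, starting at 5 weeks of age, both genotypes ate AIN-93G feed made low in iron (2.5 mg/kg), and livers were harvested at 12 weeks. Whether each library is a separate animal is not stated in the labels, so every spread given here is the spread between libraries.

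In the liver, cytosolic alcohol dehydrogenase turns ethanol into acetaldehyde, and the mitochondrial enzyme encoded by Aldh2 oxidises most of that acetaldehyde to acetate. Aldh2 also clears reactive aldehydes that arise when membrane lipids are peroxidised, a reaction that free iron promotes. Other members of the same families act on retinal, fatty aldehydes, formaldehyde and intermediates of amino acid breakdown. Hemojuvelin is a co-receptor for bone morphogenetic proteins that induces the iron hormone hepcidin in hepatocytes, and animals without it load iron in the liver.

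How similar the transcripts are bears on how well short reads can be told apart between them. Aldh1a1 and Aldh1a7, which lie 49.5 kb apart on chromosome 19, had coding sequences identical at 91.6% of 1503 aligned bases. Their longest identical stretch is 100 bases, coding bases 757 to 856 of Aldh1a1, and 10.4% of the runs of 50 bases in the coding sequence of one gene occur in the other. It is shown because reads inside it carry no letter that assigns them to either gene.
Aldh1a1 and Aldh1a7: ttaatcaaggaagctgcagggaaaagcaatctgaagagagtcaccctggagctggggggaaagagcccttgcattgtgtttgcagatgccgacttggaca
The levels of these 2 genes are therefore uncertain to the extent that the authors' counting split shared reads.

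Aldh2 is closest to Aldh1b1, another mitochondrial enzyme, with 70.2% of 1548 aligned coding bases identical. Their longest identical run is 20 bases, and 0 runs of 50 bases are shared. The 60 bases below are their most similar window, coding bases 934 to 993 in both genes, from the region that encodes the catalytic cysteine, and capitals mark the 7 bases that differ. They are shown because even here a read of the Aldh2 transcript differs from Aldh1b1.
Aldh2: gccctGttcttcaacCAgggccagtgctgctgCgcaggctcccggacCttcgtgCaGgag
Aldh1b1: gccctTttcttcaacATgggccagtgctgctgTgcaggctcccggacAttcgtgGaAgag
All sequences are those of the annotated GENCODE M21 transcripts. Among the alcohol dehydrogenases the closest pair was Adh1 and Adh5, at 67.1%.

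Levels are given as scaled FPKM. FPKM is the number of fragments per kilobase of transcript relative to all mapped fragments of the library, and it was scaled further so that the libraries share a common median ratio. A gene's value is the mean of its loci weighted by their exonic bases. Differences are on the scale of log2(scaled FPKM + 1), knockout minus wild type, with a standard error (SE) from limma. If 1 fragment is taken as the smallest step of the confidence bounds, the libraries held 55.0 and 132 M fragments in the knockouts and 87.0 and 51.3 M in wild type. Hjv itself (annotated as Hfe2; chromosome 3, 96525172 to 96529210) lacked a locus in knockout replicate 1 and measured 0.237 scaled FPKM in knockout replicate 2, against 9.22 and 29.6 in the wild type libraries. A gene without a locus is not a gene at 0, since 0 loci touched the gene of the hepatocyte marker Alb in any library.

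Aldh2 is coded in 13 exons on the minus strand of chromosome 5 (121566027 to 121593824). Its level was 740 and 907 scaled FPKM in knockout replicates 1 and 2, against 255 and 264 in wild type replicates 1 and 2. Both knockout libraries lay far above both wild type libraries, which were close to each other. The means were 824 ± 118 in the knockouts and 259 ± 6.98 in wild type (SD, n = 2 each), a ratio of 3.17 and a log2 difference of 1.66 (SE 0.22). Of the 7928 genes tested, 43 had a larger log2 difference.

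The Aldh2 value in knockout replicate 1 was pulled down by small loci. In that library 2 loci near the annotated 3′ end, of 453 and 474 bases, had deposited values of 1.76 and 4.20 FPKM and entered the weighted mean. The locus that spans the coding exons alone measured 970 and 907 scaled FPKM in the knockouts, against 255 and 264 in wild type, a ratio of 3.62. As deposited, before any scaling, this locus stood at 1161 and 866 FPKM in the knockouts, against 238 and 242 in wild type. It covered the whole of an annotated coding transcript in all 4 libraries and ended 1849 to 1877 bases short of the annotated gene end in all of them. Of the longest annotated transcript with the longest coding sequence it covered 44.4% to 51.5%.

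**Figure D1:**
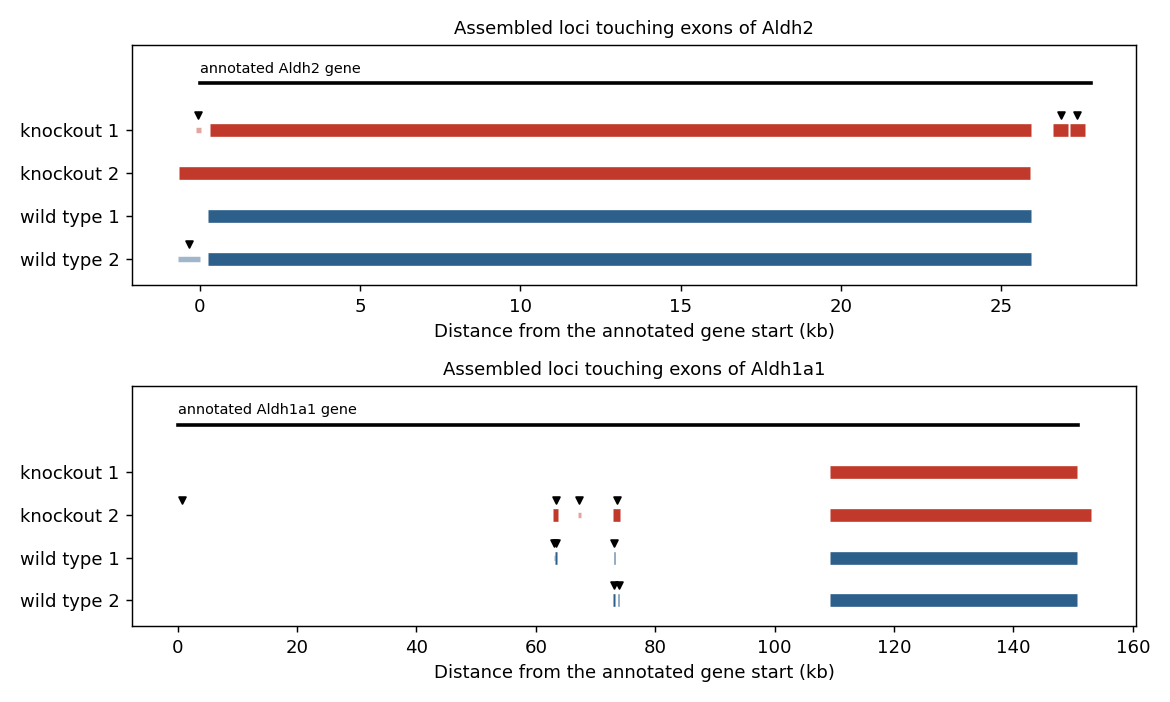
Assembled loci touching exons of Aldh2 (top) and Aldh1a1 (bottom) in each library, by distance in kb from the annotated gene start, with red bars for knockout and blue bars for wild type, thin pale bars for loci not used and triangles over loci shorter than 1.5 kb. The long Aldh2 locus has nearly the same end in all 4 libraries, with 2 small extra loci near the 3′ end in knockout replicate 1, whereas small upstream loci of Aldh1a1 appear in knockout replicate 2 and both wild type libraries.

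Aldh1b1, the mitochondrial relative closest to Aldh2, was the other member with both knockout libraries above both wild type libraries. It is coded in 1 exon on chromosome 4 (45799022 to 45804604, plus strand). Its level was 16.1 and 33.2 scaled FPKM in the knockouts, against 13.6 and 13.0 in wild type. Knockout replicate 1 lay just above wild type, and the distance came mainly from knockout replicate 2. The means were 24.7 ± 12.1 in the knockouts and 13.3 ± 0.403 in wild type (SD, n = 2 each), and the log2 difference was 0.76 (SE 0.36). Without knockout replicate 1 the log2 difference was 1.26, and without knockout replicate 2 it was 0.26.

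Aldh2 and Aldh1b1 were also the members with the highest transcript GC content, 54.8% and 55.5%, in a range that began at 46.1% and beside a median of 49.4% over the genes tested. GC content was taken over the longest coding transcript, of which the spanning Aldh2 locus covered 44.4% to 51.5%. Across all genes tested, the Spearman correlation of GC content with the log2 value of knockout replicate 2 over replicate 1 was 0.478. It was 0.263 for wild type replicate 2 over replicate 1, and 0.384 for the difference between genotypes. These correlations are over genes, which are not independent replicates. With the trend on GC content removed within each library, the log2 difference of Aldh2 was 1.46 and that of Aldh1b1 was 0.51.

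Aldh3a2, which encodes the fatty aldehyde dehydrogenase of the endoplasmic reticulum, differed most in the other direction. Its level was 92.1 and 54.3 scaled FPKM in the knockouts, against 168 and 144 in wild type (chromosome 11, 61223417 to 61267464, minus strand). Both knockout libraries lay below both wild type libraries, although they differed from each other by a factor of 1.70. The means were 73.2 ± 26.7 in the knockouts and 156 ± 17.4 in wild type (SD, n = 2 each), a ratio of 0.470 and a log2 difference of -1.12 (SE 0.31). The difference was -1.50 without knockout replicate 1 and -0.75 without knockout replicate 2. The long Aldh3a2 locus ended 21482 to 21527 bases short of the annotated gene end. It covered 48.4% to 56.1% of the longest annotated transcript with the longest coding sequence.

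The cytosolic enzymes on chromosome 19 behaved unlike Aldh2. Aldh1a1, which oxidises retinal to retinoic acid, measured 671 and 294 scaled FPKM in the knockouts, against 511 and 440 in wild type (20492715 to 20643465, plus strand). The wild type libraries lay between the knockout libraries. Small upstream loci, all under 3 FPKM as deposited where used, entered the mean in knockout replicate 2 and in both wild type libraries. The locus that spans the coding exons gave 671 and 553 in the knockouts, against 674 and 579 in wild type, a log2 difference of -0.04. No direction can be given for Aldh1a1. By the weighted mean, small loci included, its log2 difference was -0.10 (SE 0.43), 0.11 as deposited and 0.02 under quantile normalization. By the same mean it lay between -0.69 and 0.50 when 1 library was left out.

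Aldh1a7, a rodent relative of Aldh1a1, measured 88.7 and 93.2 scaled FPKM in the knockouts, against 134 and 127 in wild type (chromosome 19, 20692953 to 20727562, minus strand). The groups did not overlap, and the libraries of each genotype lay close together. The log2 difference was -0.51 (SE 0.18).

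Aldh8a1, a cytosolic enzyme of the kynurenine pathway of tryptophan breakdown, measured 99.8 and 113 scaled FPKM in the knockouts, against 131 and 134 in wild type (chromosome 10, 21377291 to 21396585, plus strand). Aldh9a1, which acts in carnitine synthesis, measured 90.1 and 94.8 in the knockouts, against 125 and 119 in wild type (chromosome 1, 167349991 to 167368532, plus strand). Both genes were lower in each knockout library than in each wild type library, with log2 differences of -0.32 (SE 0.18) for Aldh8a1 and -0.40 (SE 0.18) for Aldh9a1. A locus of 277 bases, at 2.15 and 2.08 FPKM as deposited, entered the Aldh9a1 mean in knockout replicate 1 and wild type replicate 2. The spanning Aldh9a1 locus alone gave 99.3 and 94.8 scaled FPKM in the knockouts, against 125 and 131 in wild type.

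The alcohol dehydrogenases lie in a cluster of 195 kb on chromosome 3, and Adh1 starts 41.7 Mb from Hjv on the same chromosome. Adh1, the class I enzyme that oxidises ethanol and retinol, measured 485 and 677 scaled FPKM in the knockouts, against 705 and 647 in wild type (138260991 to 138290698, plus strand). The groups overlapped, and the log2 difference of -0.24 (SE 0.25) was 0.00 without knockout replicate 1 and -0.48 without knockout replicate 2. The antisense gene Gm16559 overlaps Adh1, and the deposited loci carry no strand.

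Adh4, the class II enzyme, measured 49.6 and 48.5 scaled FPKM in the knockouts, against 70.2 and 55.1 in wild type (138415466 to 138430892, plus strand). Its assembled locus ran 1526 to 1801 bases past the annotated end in all 4 libraries. Adh5, the class III enzyme that oxidises formaldehyde bound to glutathione, measured 157 and 171 in the knockouts, against 184 and 220 in wild type (138443093 to 138455499, plus strand). Both genes were lower in each knockout library, with log2 differences of -0.34 (SE 0.20) for Adh4 and -0.29 (SE 0.20) for Adh5. Their groups overlapped with FPKM as deposited and with the loci of a gene summed. The groups of Adh4 also overlapped under quantile normalization. Those of Adh5 also overlapped with the trend on GC content removed and with the midpoint of the confidence bounds.

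**Figure D2:**
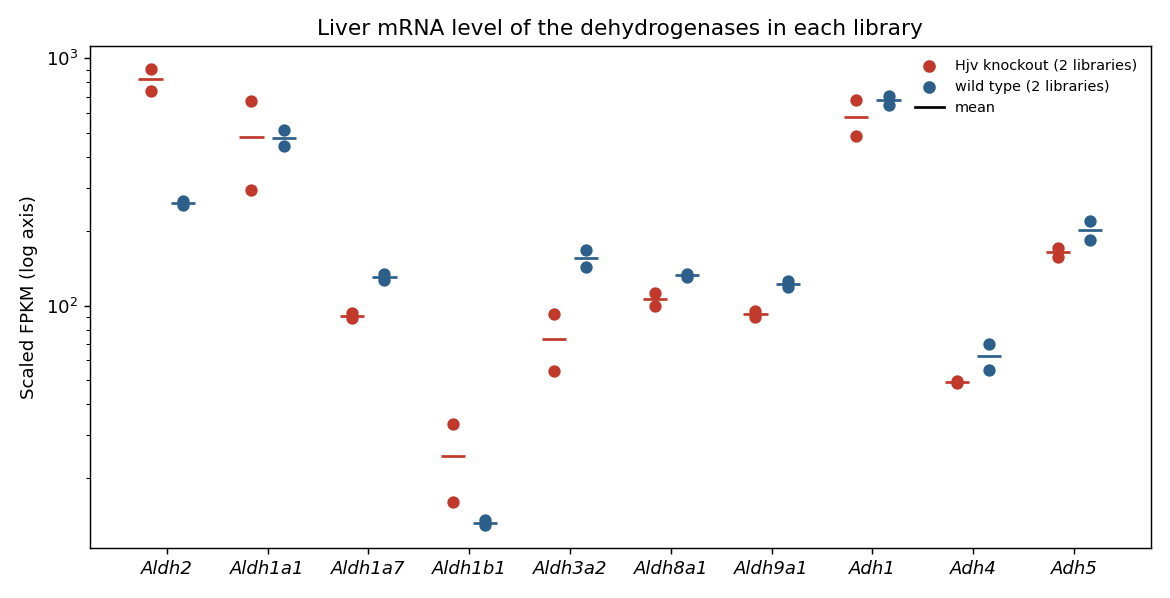
Scaled FPKM (log axis) of each dehydrogenase in the 2 knockout libraries (red, left) and the 2 wild type libraries (blue, right), with a line at each mean. Aldh2 stands at 740 and 907 in the knockouts above 255 and 264 in wild type. Of the 9 relatives, 6 lie lower in both knockouts than in both wild type libraries, beside 23.8% of all genes tested. With FPKM as deposited 4 do, beside 9.22% of all genes.

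Of the 10 genes, 2 were higher in both knockout libraries than in both wild type libraries (Aldh2 and Aldh1b1), 6 were lower (Aldh1a7, Aldh3a2, Aldh8a1, Aldh9a1, Adh4 and Adh5) and 2 overlapped (Aldh1a1 and Adh1). Over all genes tested, 22.3% were higher and 23.8% were lower without overlap. The contrast also chose the set, so nothing is read from these shares. With a log2 difference of at least 1 in addition, Aldh2 was the single member on the higher side and Aldh3a2 the single one on the lower side, where 2.57% and 1.43% of all genes lie. The median log2 difference of the 10 genes was -0.31, against 0.02 over all genes tested, and 8 of the 10 differences were below 0. Over the 5084 genes reaching 5 scaled FPKM in 2 or more libraries, the median was -0.06. Of those genes 18% were higher and 31.3% were lower without overlap.

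**Figure D3:**
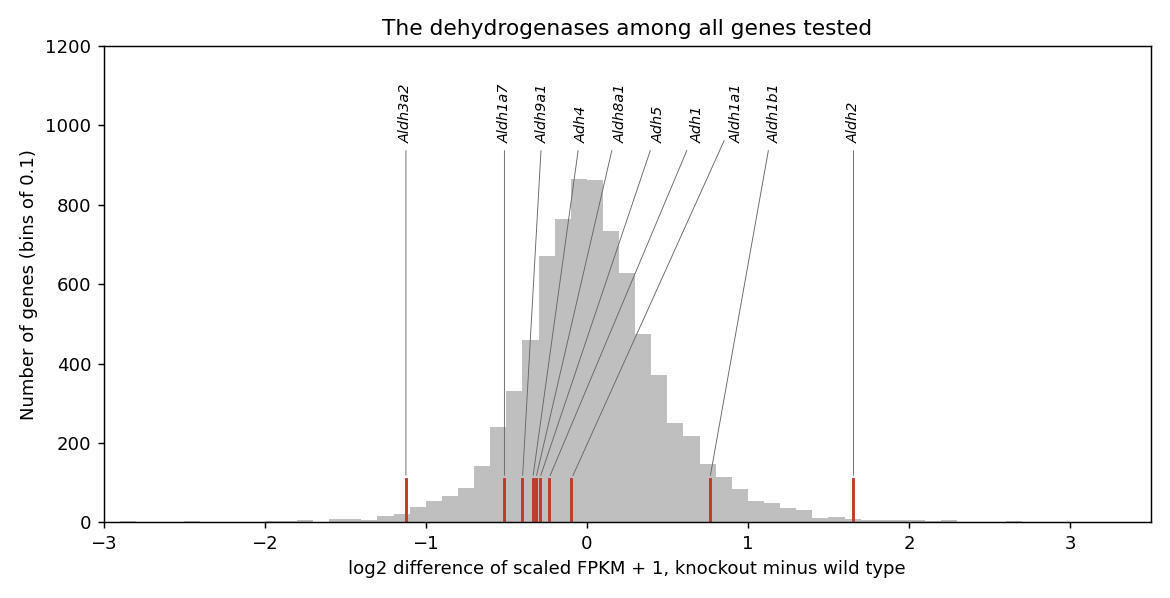
Number of genes by log2 difference, knockout minus wild type (grey, bins of 0.1), for the 7928 genes tested, with red marks for the dehydrogenases and the few genes beyond the axis limits not drawn. Aldh2 at 1.66 lies in the right tail, Aldh3a2 at -1.12 in the left tail, and the other relatives except Aldh1b1 lie between -0.51 and -0.10.

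How far the relatives lie below 0 depends on the scaling. Knockout replicate 1 had a scaling factor of 1.20, against 0.954 in knockout replicate 2 and 0.935 and 0.915 in the wild type libraries. As deposited, the median log2 difference of all genes was 0.19, that of the 10 dehydrogenases was -0.10, and 2 were higher and 4 lower without overlap, beside 35.8% higher and 9.22% lower over all genes. The log2 difference of Aldh2 was 1.86 as deposited and 1.71 under quantile normalization. That of Aldh3a2 ranged from -1.13 to -0.92 over the alternatives other than leaving out a library.

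**Figure D4:**
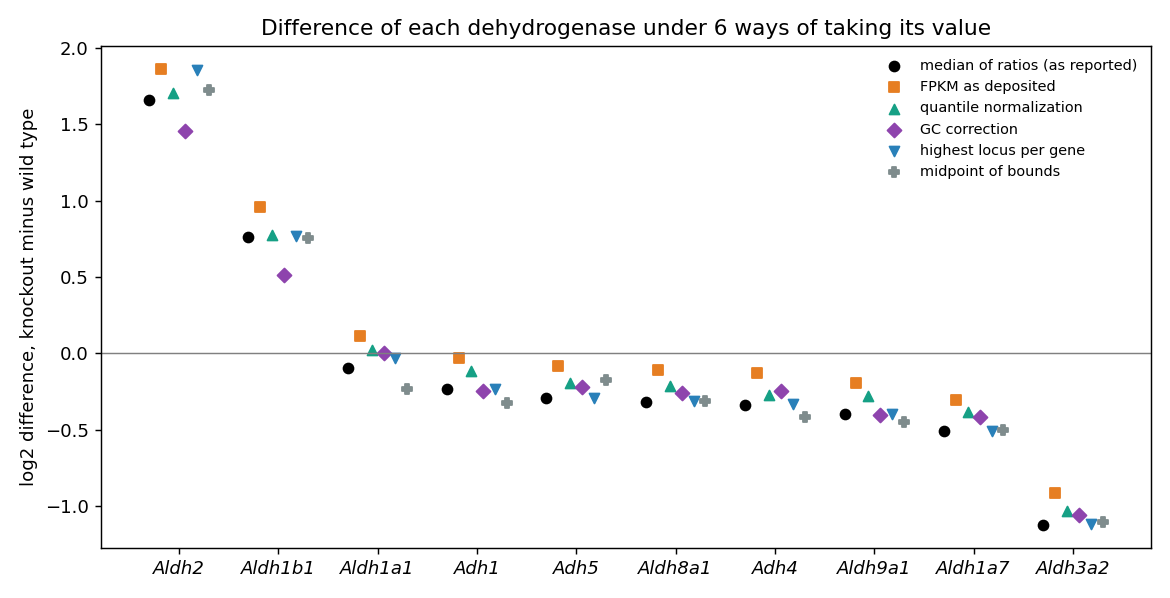
Log2 difference of each dehydrogenase, knockout minus wild type, under 6 ways of taking its value, with genes ordered by the reported difference. Aldh2 and Aldh1b1 stay above 0 and Aldh3a2 stays below 0 in all 6, whereas Aldh1a1 crosses 0 and the values as deposited lie above the reported ones for every gene.

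Ratios taken inside a library need no scaling between libraries. The spanning Aldh2 locus over that of Aldh1a1 gave 1.45 and 1.64 in the knockouts, against 0.378 and 0.457 in wild type, so Aldh2 exceeded Aldh1a1 in both knockout libraries and in neither wild type library. Over Adh1 the ratio was 2.00 and 1.34 in the knockouts, against 0.361 and 0.409 in wild type. Aldh2 over Adh5 was 6.18 and 5.30 in the knockouts, against 1.38 and 1.20 in wild type.

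The widest separation was over Aldh3a2, at 10.5 and 16.7 in the knockouts, against 1.51 and 1.84 in wild type. It was narrowest over Aldh1b1, at 60.1 and 27.3 in the knockouts, against 18.8 and 20.4 in wild type. For all 9 relatives the lower knockout ratio exceeded the higher wild type ratio, by a factor of 1.34 for Aldh1b1 and of 3.17 to 5.72 for the other 8. Because every ratio has Aldh2 on top, the 9 comparisons are not independent. Aldh2 was also chosen for its level in these same libraries, so the separation follows in part from that choice and is a description.

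**Figure D5:**
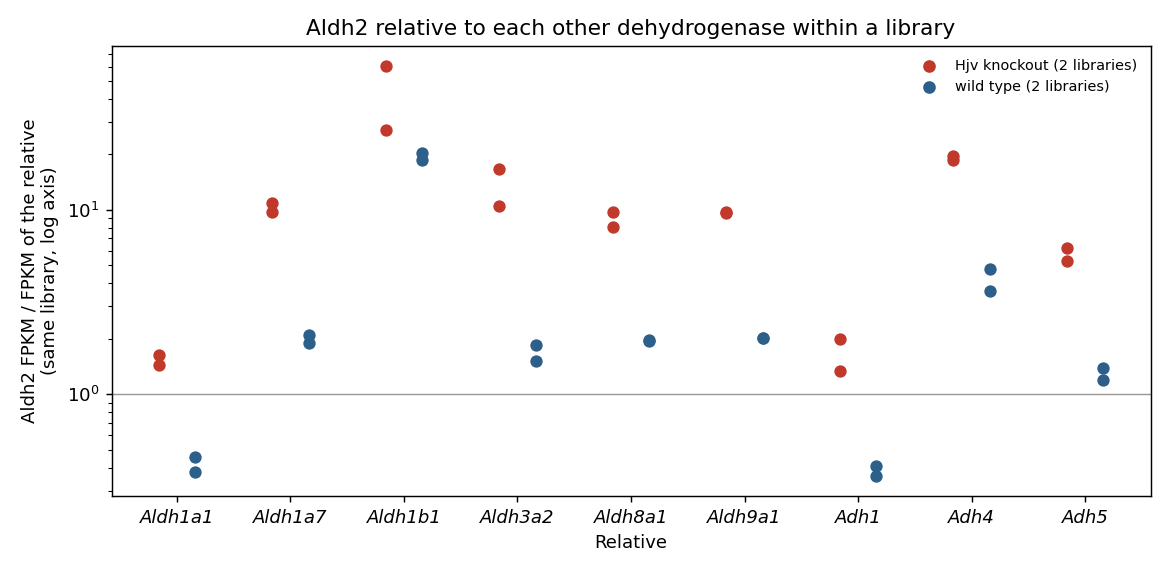
FPKM of the Aldh2 locus divided by that of each relative in the same library (log axis), with knockout in red on the left and wild type in blue on the right of each pair, and a line at a ratio of 1. The knockout points lie above the wild type points for all 9 relatives, and over Aldh1a1 and Adh1 the groups lie on opposite sides of the line.

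The ranks that follow are by the spanning loci. Aldh2 made up 35.6% and 33.0% of the summed FPKM of the 10 genes in the knockouts, the top rank in both, against 10.4% and 11.4% in wild type, rank 3 in both. Adh1 made up 17.8% and 24.7% in the knockouts, against 28.7% and 28.0% in wild type, where it had rank 1. Aldh1a1 made up 24.6% and 20.2% in the knockouts, against 27.4% and 25.0% in wild type. The sum contains Aldh2, so a larger Aldh2 share lowers the others by arithmetic, and neither Adh1 nor Aldh1a1 separated by its own level. FPKM is a density per length, so these are shares of transcripts and not of protein.

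Below the 3 leading genes Adh5 had rank 4, Adh4 rank 9 and Aldh1b1 rank 10 in all 4 libraries. In the knockouts Aldh8a1 followed Adh5, and then Aldh9a1 at 99.3 and 94.8 scaled FPKM, while Aldh1a7 and Aldh3a2 below it overlapped. In wild type Aldh3a2 came after Adh5, followed by Aldh8a1, Aldh1a7 and Aldh9a1, at 125 to 134 scaled FPKM, which overlapped. Aldh1b1 stood at the 74.2 percentile of mean level among the genes tested, Adh4 at 89.5 and the other 8 above 90.

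Of the remaining members of both families, the aldehyde dehydrogenases tested did not pass the test in either direction. The alcohol dehydrogenases Adh6a, Adh6b and Adh7 were listed but not tested. Of 17 listed, 5 were tested, and by limma 0 had an adjusted p under 0.05 and 0 an unadjusted p under 0.05, beside 0 of all 7928 genes (0%) and 5.85% higher and 5.32% lower. Without overlap 3 were higher and 0 lower, beside 22.3% higher and 23.8% lower over all genes, and the median log2 difference was 0.15, against 0.02 over all genes. Among the 3 without overlap, the largest difference was that of Aldh4a1, a mitochondrial enzyme of proline breakdown. It measured 86.7 and 99.0 scaled FPKM in the knockouts, against 67.7 and 76.2 in wild type (log2 difference 0.36, SE 0.19, limma adjusted p = 0.527).

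Aldh1l1, which oxidises formyl tetrahydrofolate, measured 183 and 188 scaled FPKM in the knockouts, against 168 and 183 in wild type, with a log2 difference of 0.08. Aldh5a1, the succinate semialdehyde dehydrogenase, measured 15.3 and 15.2 in the knockouts, against 14.7 and 12.7 in wild type, with a log2 difference of 0.15. Aldh16a1 and Aldh7a1 overlapped. Aldh16a1 was high in knockout replicate 2 alone, at 1.96 and 14.3 in the knockouts, against 1.91 and 2.15 in wild type. Its log2 difference of 1.15 (SE 0.78) was the largest of the listed genes tested. Its transcript has a GC content of 57.4%. Without knockout replicate 1, which leaves a single knockout library, its log2 difference was 2.34.

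A further 12 of the listed family members were not tested, 8 of them for want of any value. Aldh6a1, the mitochondrial methylmalonate semialdehyde dehydrogenase, shared its locus with a second gene. That locus measured 177 and 165 scaled FPKM in the knockouts, against 162 and 142 in wild type.

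Among 18 enzymes that act beside the dehydrogenases on alcohols, aldehydes or acetate, 15 were tested. By limma 0 passed at an adjusted p under 0.05, and 0 were higher and 3 lower at an unadjusted p under 0.05, where 5.85% and 5.32% of all genes lie. Without overlap 1 was higher and 5 were lower, beside 22.3% and 23.8% of all genes. The median log2 difference was -0.18, and 0.03 as deposited. Acss2, the enzyme that turns acetate into acetyl-CoA in the cytosol and nucleus, measured 37.2 and 28.6 scaled FPKM in the knockouts, against 73.7 and 103 in wild type (log2 difference -1.39, SE 0.26, limma adjusted p = 0.381). Without knockout replicate 1 its log2 difference was -1.57.

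Akr1a1, an aldehyde reductase, measured 160 and 88.7 scaled FPKM in the knockouts, against 203 and 217 in wild type (log2 difference -0.81, limma adjusted p = 0.458). Without knockout replicate 1 its log2 difference was -1.24, and its transcript GC content is 53.9%. Esd, the hydrolase that completes formaldehyde oxidation after Adh5, measured 138 and 127 in the knockouts, against 211 and 207 in wild type (log2 difference -0.66, limma adjusted p = 0.419). Adhfe1, a mitochondrial hydroxyacid transhydrogenase, measured 32.8 and 33.0 in the knockouts, against 55.3 in each wild type library (log2 difference -0.73, limma adjusted p = 0.401). In each of these genes both knockout libraries lay below both wild type libraries.

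Catalase (Cat), which can also oxidise ethanol, measured 947 and 1244 scaled FPKM in the knockouts, against 1402 and 1528 in wild type, with a log2 difference of -0.43. Gpx1, the glutathione peroxidase, lay the other way at 704 and 1035 in the knockouts, against 559 and 624 in wild type, with a log2 difference of 0.53. Cyp2e1, the ethanol-inducible cytochrome P450, measured 4261 in knockout replicate 1 and no locus touched its gene in knockout replicate 2, against 3922 and 3828 in wild type, and was not tested.

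Of 20 genes that handle retinol and retinal, the pathway in which Adh1 and Aldh1a1 act, 13 were tested. By limma 0 passed at an adjusted p under 0.05, and 1 was higher and 3 were lower at an unadjusted p under 0.05, where 5.85% and 5.32% of all genes lie. Without overlap 4 were higher and 3 lower, beside 22.3% and 23.8% of all genes, and the median log2 difference was -0.01, or 0.19 as deposited. Rxra, the nuclear receptor that pairs with retinoic acid receptors, measured 38.0 and 69.0 scaled FPKM in the knockouts, against 20.4 and 20.2 in wild type (log2 difference 1.30, SE 0.32, limma adjusted p = 0.401). Without knockout replicate 1 its log2 difference was 1.72, and its transcript GC content is 57.0%. Its partner Rara, a retinoic acid receptor with a GC content of 59.2%, measured 2.65 and 6.23 in the knockouts, against 1.58 and 1.97 in wild type (log2 difference 0.89, limma adjusted p = 0.468). The log2 difference of Rara was 1.38 without knockout replicate 1. Lrat, which esterifies retinol for storage, measured 3.24 and 2.57 in the knockouts, against 1.85 and 1.77 in wild type (log2 difference 0.47, limma adjusted p = 0.485). The transcript of Lrat has a GC content of 42.0%.

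The retinol dehydrogenases Rdh11 and Rdh16 were lower in both knockout libraries. Rdh11 measured 18.7 and 17.4 scaled FPKM in the knockouts, against 29.1 and 31.0 in wild type (log2 difference -0.70, limma adjusted p = 0.401). Rdh16 measured 24.8 and 15.0 in the knockouts, against 32.7 and 33.1 in wild type (log2 difference -0.74, limma adjusted p = 0.446). The log2 difference of Rdh16 was -1.09 without knockout replicate 1. Bco2, a carotenoid oxygenase, measured 9.11 and 7.39 in the knockouts, against 12.8 and 11.6 in wild type (log2 difference -0.52, limma adjusted p = 0.446). The most abundant retinol dehydrogenase tested, Rdh7, measured 480 and 506 in the knockouts, against 492 and 503 in wild type.

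The coding genes beside Aldh2 on chromosome 5 were looked up after their values were seen. Of the 4 on the side of the Aldh2 promoter, Acad10, an acyl-CoA dehydrogenase gene, measured 7.37 and 10.5 scaled FPKM in the knockouts, against 5.31 and 3.31 in wild type (log2 difference 0.91, limma adjusted p = 0.430). The nearest, Acad12, measured 2.16 and 2.47 in the knockouts, against 2.45 and 1.86 in wild type. Brap and Atxn2 overlapped too, with log2 differences of 0.05 and 0.29. The 4 on the other side (Tmem116, Adam1b, Adam1a and Mapkapk5) were not tested.

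The genes whose pattern over the 4 libraries was nearest to that of Aldh2, by Euclidean distance of log2 values centred on their mean, were Apcs, Extl1 and Sae1. Apcs, the serum amyloid P component, measured 164 and 199 scaled FPKM in the knockouts, against 52.4 and 57.3 in wild type, at a distance of 0.0720. Extl1, an exostosin-like glycosyltransferase, measured 5.38 and 7.06 in the knockouts, against 1.21 and 1.62 in wild type, at a distance of 0.157. Sae1, which encodes part of the enzyme that activates SUMO, measured 32.8 and 35.3 in the knockouts, against 12.4 and 12.0 in wild type, at a distance of 0.289.

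Markers of hepatocytes, of liver zones and of other cell types were measured in the same libraries. Of the hepatocyte markers 6 of 10 were tested. Their median log2 difference was -0.39, and without overlap 1 was higher and 3 were lower, beside 22.3% and 23.8% of all genes. The higher one was Apoa1, an apolipoprotein, at 3420.5 and 5013 scaled FPKM in the knockouts, against 2643 and 1601 in wild type. The 6 markers summed to 6135 and 7795 in the knockouts, more than 50% of it Apoa1, against 6150 and 6357 in wild type. The lower ones, with limma adjusted p-values of 0.401 to 0.438, were Tat, Pck1 and Ass1. Tat, a tyrosine aminotransferase, measured 246 and 239 in the knockouts, against 456 and 407 in wild type. Pck1, an enzyme of gluconeogenesis, measured 533 and 617 in the knockouts, against 822 and 986 in wild type. Ass1, of the urea cycle, measured 869 and 1082 in the knockouts, against 1512 and 1935 in wild type.

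The pericentral markers Glul, Cyp1a2 and Oat, 3 of 4 listed, summed to 731 and 839 scaled FPKM in the knockouts, against 1054 and 1027 in wild type, and the 5 periportal markers to 677 and 842 in the knockouts, against 646 and 747 in wild type. Kupffer cell markers (5 of 6 tested) summed to 69.6 and 97.4 in the knockouts, against 99.9 and 122 in wild type, with 0 higher and 3 lower without overlap, beside 22.3% and 23.8% of all genes. Markers of sinusoidal endothelium (6 of 6 tested) summed to 52.9 and 67.0 in the knockouts, against 45.7 and 57.4 in wild type, and those of stellate cells (4 of 6) to 86.7 and 70.3 in the knockouts, against 81.0 and 66.1 in wild type. Dcn made up most of the stellate cell sum, and 2 of the 4, Lrat and Reln, were higher without overlap and 0 lower, beside 22.3% and 23.8% of all genes. The counts higher and lower without overlap were 1 and 1 for endothelial, 0 and 2 for pericentral and 0 and 1 for periportal markers. Reln measured 6.73 and 5.82 in the knockouts, against 3.56 and 3.64 in wild type. Ptprc, a general leukocyte gene, was the 1 of 4 genes listed for lymphocytes that was tested. It measured 2.68 and 2.31 in the knockouts, against 1.74 and 1.90 in wild type. Cd3e, Cd79a and Nkg7 were not tested, nor were any of the 4 cholangiocyte and 4 erythroid markers. The part of these markers in the differences of the dehydrogenases was not tested, and in whole liver fewer cells of a type and less RNA per cell cannot be told apart.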

How the data were processed

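Liver RNA (TruSeq libraries) was processed by the authors with FastQC, TopHat and Cufflinks, per the submitters' processing notes, which give no versions and name build mm9. The deposited values are FPKM of loci assembled in each library separately, with FPKM confidence bounds, per the file headers. They carry no gene names and no strand. The coordinates fit GRCm38, not mm9, and were assigned to coding genes of GENCODE M21. Of the 56 loci on exons of the 10 genes, 50 were used. Of the others, 3 had an FPKM far above their bounds, 2 lay mostly outside the gene and 1, on a single exon, was mostly not exonic. The deposited FPKM exceeded its own upper bound in 31 of the 40 spanning loci, by a factor of up to 1.13, and the fragment numbers behind single values are not given. Spanning loci covered 74.4% to 100% of the annotated coding transcript that each covered best.

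Each gene took the FPKM of its loci, averaged with their exonic bases as weights, if these spanned at least 50% of a coding transcript, and libraries were scaled by the median of ratios. Genes reaching 1 FPKM in 2 or more libraries were tested by limma 3.58.1 (R 4.3.3) with a trend on log2(scaled FPKM + 1), two-sided, with Benjamini-Hochberg adjustment over all genes and a threshold of 0.05. The p-values measure the spread between libraries, and an exact permutation test of 2 against 2 cannot go below 0.333. The test was tried on simulated data. Every member was named with its libraries, and up to 6 genes of the other lists without overlap, by smallest unadjusted p, the 3 genes nearest to Aldh2, and Hjv. Genes named outside that rule (Aldh16a1, Aldh6a1, Cyp2e1, Rdh7, single markers and the neighbours of Aldh2) were picked with their values in view. The members and lists were chosen with earlier results of these data known. Alternatives were other pseudocounts, filters, scalings, locus rules and spans, a GC correction, a replicate block, leaving out each library and, chosen after seeing the data, the midpoint of the bounds.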

Additional observations from a re-analysis of the deposited data

How the results depend on the processing

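By limma, 0 genes passed over all genes in the analysis reported, with 886 at an unadjusted p under 0.05, and 1 passed with FPKM as deposited. Leaving out 1 library, which assumes that the lone library varies as the other group does, gave 2 to 489 genes: 2 without wild type replicate 1, 2 without wild type replicate 2, 489 without knockout replicate 1 (359 higher, 130 lower) and 13 without knockout replicate 2. Likewise 0 to 1 of the other dehydrogenases, 0 to 3 of the partner enzymes and 0 to 3 of the retinoid genes passed, each above 0 only without knockout replicate 1 (Aldh16a1; Acss2, Akr1a1 and Akr7a5; Rxra, Rara and Rdh16). The median log2 difference of the 10 dehydrogenases, -0.31, was -0.10 as deposited, -0.21 under quantile normalization and -0.38 to -0.26 with 1 library left out. The cause was not tested. With the replicate number as a block 0 genes passed and the median was -0.31. Same-numbered libraries correlated at 0.0802 in their deviations over genes. This single value cannot exclude pairing, and since the labels name no pairs, none was assumed. Replicate 2 over replicate 1 rose with GC content in both genotypes (Spearman 0.478 in the knockouts and 0.263 in wild type). The log2 difference of Aldh2 lay between 1.46 and 1.86 over the other alternatives and between 1.51 and 1.80 with 1 library left out. Of 179 alternative values over the 10 genes, 7 changed sign, 6 of them for Aldh1a1 and 1 for Adh1. With the GC correction the median was -0.25.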
